A study of Mus musculus with 3 samples.

Results

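The comparison described here was made between whole tissue punches of mouse liver taken 7 days after irreversible electroporation (IRE) and whole punches of control liver. Irreversible electroporation kills cells by opening their membranes with electric pulses while it leaves the surrounding matrix in place. Members were all cell barcodes with at least 200 detected genes in either library, which left 16010 barcodes, 10386 of them in the control library and 5624 in the 7-day library, of 25263 barcodes that passed the same limit in all 3 libraries of the series and of 46331 deposited. Animals were adult C57BL/6 mice. For the 7-day library, 8 pulses of 50 ms at 75 V were given through electrodes on either face of a liver lobe, 1 s apart, and the electroporated area was taken with a 4 mm punch. The voltage is that of the labels, and the study's methods give a lower one for electroporation of the liver surface. For the control library, labelled as a sham control, the uninjured equivalent of that area was taken 1 day after surgery, so the groups differed in the time since surgery as well as in the injury. The remaining library, taken 1 day after the same pulses, was used for values set beside these. Tissue of 3 livers was pooled for each library, digested with dispase, collagenase and DNase, freed of red blood cells by lysis and profiled by Drop-seq, in which cells are captured in droplets with barcoded beads and transcripts are counted by unique molecular identifiers (UMIs). With 1 pooled library for each condition, no spread between animals could be measured and no test between conditions was possible. Intervals below are 95% intervals for counting error only (exact binomial for shares and ratios), and PCR copies beyond the UMI correction are not covered by them. Libraries are called by their labels throughout.

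Liver tissue consists mainly of hepatocytes, with sinusoidal endothelial cells, stellate cells and fibroblasts, and the resident macrophages known as Kupffer cells. After sterile injury, neutrophils are known to arrive early, drawn by chemokines that bind Cxcr2, and monocytes follow through Ccr2 and its ligands. Monocytes mature into macrophages that clear debris, while mesenchymal cells lay down collagen during repair.

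The control library held 8013800 UMIs in kept barcodes with a median of 595 per barcode, and the 7-day library 3058967 with a median of 456.5. Barcodes far outnumbered the 1000 cells that the labels give as the estimate for a library. Mitochondrially encoded genes took 20.5% of UMIs in control, 21.7% at 1 day and 4.10% at 7 days, and 44.6% of control barcodes but 1.51% of 7-day barcodes had over 20% of such UMIs. Barcodes below the limit held 20.1% of the UMIs of the control library and 33.2% of those of the 7-day library. The control and 7-day libraries shared 44 barcodes.

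Levels in all 3 libraries are given before the results for genes that bear on the labels, because no targeted gene checks the labels in this design. Levels are in CPM, the UMIs of a gene per 1000000 UMIs of its library. The collagen gene Col1a2 was at 842 CPM in the control library, 12.3 at 1 day and 3.27 at 7 days. Periostin (Postn), a matricellular protein known for its presence in healing tissue, was at 55.0, 0.655 and 0, and the proliferation gene Mki67 at 265, 102 and 17.7. Albumin (Alb), which defines hepatocytes, was at 533, 11571 and 108, so that the 1-day library held far more hepatocyte RNA than the other two. In sums over lists, the control library was highest of the 3 in mesenchymal markers, collagens and division genes, the 1-day library in hepatocyte and endothelial genes, and the 7-day library in neutrophil genes. No value in the files links a library to its treatment other than its label, and every direction below rests on those labels.

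**Figure D1:**
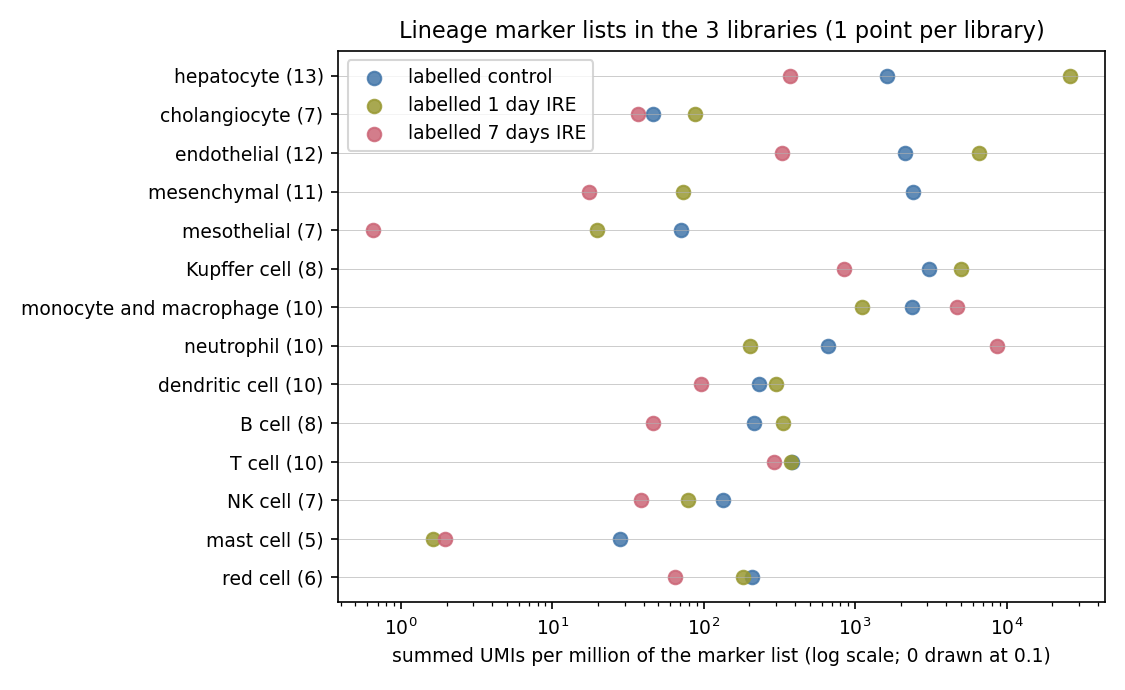
Summed CPM (log axis) of the marker list of each lineage, with 1 point for each library and the number of markers in brackets. Hepatocyte and endothelial markers were highest in the library labelled 1 day, mesenchymal markers in the library labelled control (2403 against 72.9 and 17.3) and neutrophil markers in the library labelled 7 days (8635 against 663 and 203).

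Neutrophils and monocytes made up most of the assigned barcodes at 7 days, whereas endothelial cells, Kupffer cells, mesenchymal cells and lymphocytes took smaller shares than in control. Each barcode was assigned to the lineage of which it held the most distinct markers, with at least 2 needed and ties left unassigned. Neutrophils took 2.21% of control barcodes (1.94 to 2.52%, 230 barcodes) and 35.3% of 7-day barcodes (34.1 to 36.6%, 1986 barcodes). Monocytes and macrophages took 21.6% (20.9 to 22.4%) and 32.6% (31.4 to 33.8%). These were the 2 of 14 lineages with a higher share at 7 days by intervals that did not overlap, against 8 with a lower share. With every barcode thinned to 300 UMIs, which left out 209 control and 545 7-day barcodes, the shares were 1.83% and 32.2% for neutrophils and 12.3% and 24.4% for monocytes and macrophages.

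Endothelial barcodes made up 16.2% of control (15.5 to 16.9%) and 1.42% of 7-day barcodes (1.13 to 1.77%). Kupffer cells made up 13.5% (12.8 to 14.2%) and 2.72% (2.31 to 3.18%), so that the resident macrophages differed in the opposite direction from the monocytes. Barcodes of mesenchymal cells numbered 466 in control, or 4.49%, and 2 at 7 days, or 0.0356% (0.00431 to 0.128%). Hepatocytes, the parenchyma of the liver, were scarce in both libraries, with 2.24% of control (1.97 to 2.55%) and 0.462% of 7-day barcodes (0.302 to 0.677%), against 51.2% at 1 day, where 7640 of 9253 barcodes carried at least 2 markers of at least 2 lineages. T cells took 4.28% and 1.74%, B cells 1.43% and 0.178%, dendritic cells 1.33% and 0.160%, and NK cells 1.11% and 0.196%. Mesothelial cells, which cover the liver surface, were found as 12 barcodes in control, or 0.116% (0.0597 to 0.202%). At 7 days they were 0 of 5624, which allows a share of up to 0.0656%, so the 2 intervals overlapped. Unassigned barcodes made up 31.2% and 25.04%, and no doublet caller was run: 2304 control and 1538 7-day barcodes carried at least 2 markers of at least 2 lineages. In whole tissue, a smaller share of a lineage, fewer cells of it and less RNA in each cell cannot be told apart.

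**Figure D2:**
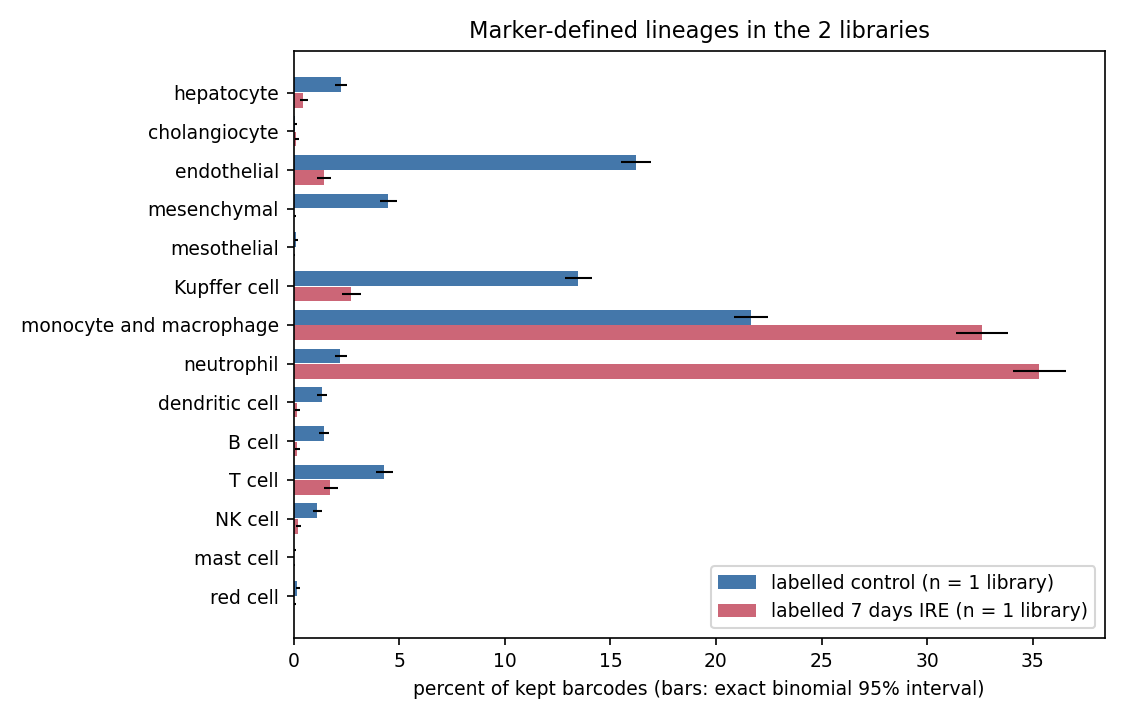
Share of kept barcodes in each marker-defined lineage in the control library (blue) and the 7-day library (red), with exact binomial 95% intervals that cover counting error only. Neutrophils and monocytes and macrophages reached 35.3% and 32.6% at 7 days, and the other named lineages above 3% of control barcodes were all lower at 7 days.

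Summed over the whole library, without any assignment of barcodes, neutrophil and monocyte markers were higher at 7 days and endothelial, Kupffer cell and mesenchymal markers lower. Values below are in CPM, in the order control and 7 days, and each ratio is that of 7 days to control with its 95% interval. The 10 neutrophil markers together were at 663 and 8635 CPM (ratio 13.02, 12.6 to 13.4), and 10 of 10 were at least 2-fold higher at 7 days. The 10 monocyte and macrophage markers were at 2384 and 4725 (ratio 1.98, 1.94 to 2.03), with 4 of 10 at least 2-fold higher. Among these 10, Ccr2, the receptor by which monocytes follow Ccl2, was at 411 and 749.9 CPM (ratio 1.82, 1.73 to 1.92). Cx3cr1, the fractalkine receptor of patrolling monocytes, was at 34.1 and 39.9 (ratio 1.17, 0.938 to 1.45), and the growth factor receptor Csf1r at 308 and 224 (ratio 0.728, 0.668 to 0.793). All 12 endothelial, all 8 Kupffer cell and all 8 tested mesenchymal markers were at least 2-fold lower, with summed ratios of 0.153 (0.144 to 0.164), 0.278 (0.267 to 0.290) and 0.00721 (0.00540 to 0.00943). The T cell list differed least among the immune lineages with a lower share, at 384 and 291 CPM (ratio 0.758, 0.703 to 0.818). In barcodes under 200 genes, which no share counts, neutrophil markers were at 1662 and 20043 CPM.

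Over all genes, 10227 had at least 50 UMIs in the control and 7-day libraries together and were compared. Of these, 899 were at least 2-fold higher at 7 days, or 8.79%, and 2225 at least 2-fold lower, or 21.8%. Both shares are the background for every count of list members below. At a 4-fold limit the numbers were 292 (2.86%) and 984 (9.62%). The median log2 ratio was -0.21, with quartiles at -0.86 and 0.33, so the typical gene was slightly lower in CPM at 7 days. That median was -0.02 after scaling by edgeR's TMM and -0.48 with mitochondrially encoded genes left out of the total. It was -0.05 among genes with at least 200 UMIs and -0.32 with no filter on low counts. The balance of genes higher and lower also depended on the scale. The counts were 1264 higher and 1854 lower after centring on the median ratio and 1213 and 1892 after TMM. They were 630 and 2960 with mitochondrially encoded genes left out of the total. No tested gene was at 0 UMIs in control and 58 were at 0 at 7 days. The control library was the deeper, so a limit on UMIs of both together made a count of 0 likelier at 7 days.

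**Figure D3:**
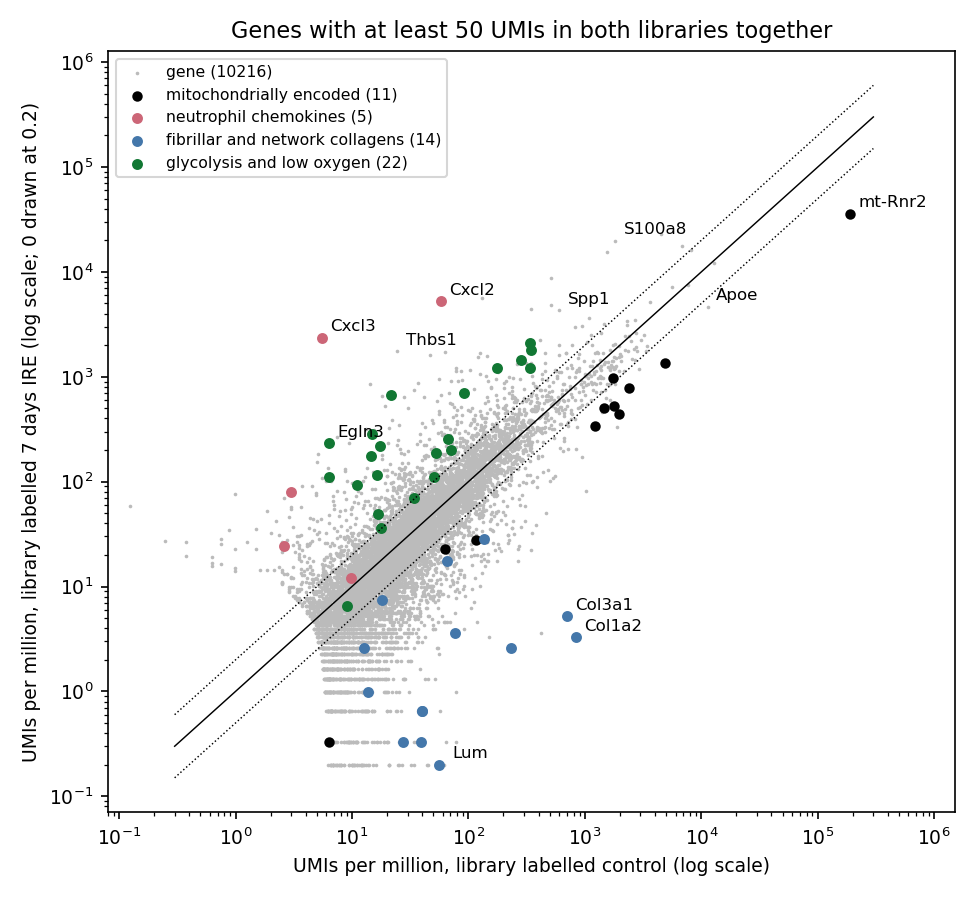
CPM in the control library (x axis) and the 7-day library (y axis), both on log scales, for each of the 10227 genes compared. The solid line marks equality and the dotted lines a 2-fold difference. Chemokines of neutrophils and genes of glycolysis and low oxygen lie above the upper dotted line with few exceptions, and collagens below the lower one.

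The largest differences upward were in chemokines, in genes that answer low oxygen and in products of activated myeloid cells. Cxcl3, a ligand of Cxcr2, was at 5.49 and 2359 CPM (ratio 429.7, 319.8 to 592), and at least 1 UMI of it was found in 0.212% of control and 39.6% of 7-day barcodes. Cxcl2, a second ligand of the same receptor, was at 58.0 and 5222 (ratio 89.996, 82.1 to 98.9), and was found in 3.05% and 67.8% of barcodes. Thrombospondin 1 (Thbs1), a secreted glycoprotein that activates latent TGF-beta, was at 24.5 and 1745 (ratio 71.3, 61.9 to 82.7). Arginase 1 (Arg1), which splits arginine and is made by hepatocytes and by some macrophages, was at 131 and 5593 (ratio 42.8, 40.2 to 45.6). The monocyte chemokine Ccl2 was at 46.9 and 1615 (ratio 34.4, 31.0 to 38.3), and the lipopolysaccharide co-receptor Cd14 at 62.4 and 1705 (ratio 27.3, 24.9 to 30.0). G0s2, an inhibitor of lipolysis and one of the neutrophil markers, was at 14.2 and 848 (ratio 59.6, 49.4 to 72.6), and Trem1, an amplifying receptor of myeloid cells, at 7.36 and 266 (ratio 36.2, 27.8 to 48.0). Low-oxygen genes were represented by Egln3, an oxygen-sensing prolyl hydroxylase, at 6.36 and 231 (ratio 36.4, 27.4 to 49.3), and by Hilpda, which protects lipid droplets, at 21.6 and 663 (ratio 30.7, 26.3 to 36.1). Slc7a11, the cystine importer, was at 5.12 and 183 (ratio 35.8, 26.0 to 50.4). Nos2, the inducible nitric oxide synthase, rested on 2 control UMIs and 83 at 7 days with a ratio of 109 (29.2 to 913). A further 3 genes of the same rank carry only clone names, with 2010005H15Rik at 1 and 178 UMIs, Gm10872 at 8 and 232, and Gm5483 at 145 and 1992.

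The largest differences downward were in fibroblast matrix genes and in immunoglobulins. Col1a2 was at 842 and 3.27 CPM (ratio 0.00388, 0.00186 to 0.00715), Col3a1 at 700.4 and 5.23 (ratio 0.00747, 0.00427 to 0.0121) and Col1a1 at 232 and 2.62 (ratio 0.0113, 0.00486 to 0.0223). Decorin (Dcn), a small proteoglycan that binds collagen fibrils, was at 418 and 3.60 (ratio 0.00860, 0.00429 to 0.0154). Lumican (Lum), a relative of decorin, had 490 UMIs in control and 0 at 7 days, and was at least 62.3-fold lower, taking the floor of 3 UMIs for a count of 0. By the same floor Col6a1 was at least 57.0-fold, Postn at least 56.1-fold, Aspn at least 45.6-fold, Mmp2 at least 44.5-fold, Gas1 at least 34.5-fold and Igha at least 32.8-fold lower. Dpt and Ptn, both secreted by fibroblasts, kept 1 UMI each at 7 days against 621 and 510 in control. Fstl1, a follistatin-related secreted protein, was at 151 and 3.27 (ratio 0.0217, 0.0104 to 0.0401). The immunoglobulin joining chain (Igj), which links the chains of secreted IgA and IgM, was at 78.0 and 0.981 (ratio 0.0126, 0.00259 to 0.0369). Of these 15 genes, 13 were fibroblast or matrix genes and 2 belonged to antibody-producing cells.

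Ranked by the amount gained in CPM, the first 4 genes were those of the ferritin chains and of calprotectin. Ferritin heavy chain (Fth1) was at 4508 and 22814 CPM (ratio 5.06, 4.997 to 5.13), and ferritin light chain (Ftl1) at 6769 and 17552 (ratio 2.59, 2.56 to 2.62). The calprotectin subunits S100a8 and S100a9, abundant proteins of the neutrophil cytosol, were at 1829.7 and 19867 (ratio 10.9, 10.7 to 11.1) and 1561 and 15435 (ratio 9.89, 9.70 to 10.1). Serglycin (Srgn), the proteoglycan of myeloid granules, was at 509.6 and 8816 (ratio 17.3, 16.7 to 17.9), Actb at 8083 and 16021 (ratio 1.98, 1.96 to 2.01), the chemokine Ccl6 at 514 and 4861 (ratio 9.46, 9.14 to 9.79) and the neutrophil marker Retnlg at 343 and 4422 (ratio 12.9, 12.4 to 13.4). Ranked by the amount lost, the mitochondrial ribosomal RNA mt-Rnr2 came first, at 188870.0 and 36008 (ratio 0.191, 0.189 to 0.192). Others of the 10 largest losses were Apoe at 11364 and 4668 (ratio 0.411, 0.404 to 0.418), mt-Rnr1, the class II gene H2-Ab1, mt-Cytb, Rplp1, Sepp1, mt-Nd2 and Rps24. Sepp1, the plasma selenium carrier, was at 1882 and 333 (ratio 0.177, 0.166 to 0.189). Mitochondrially encoded genes were 4 of these 10, and since CPM values add up to a fixed total, their smaller share of the 7-day library leaves more of it to all other genes.

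Short letters of promoters are shown for 2 sets of genes, chemokines and low-oxygen genes, with the searched motif in capitals. Sequences are those of RefSeq on mouse build GRCm38.p6, over 250 bases before to 50 after each start, and a match describes letters only, not a bound site. The kappa B letters, GGG followed by any 2 bases and TTTCC and searched on both strands, were found in 4 of 9 chemokine genes with a listed promoter, out of 14 in the 3 chemokine lists, and in 1.89% of 27025 genes with a promoter (2.08% of those compared here). The 4 were Cxcl1, Cxcl2, Cxcl3 and Ccl9, Ccl9 matching on the opposite strand, each shown with 30 bases around a match that began between 35 and 97 bases before a start, outside the transcribed gene.
Cxcl3, chr5:90786018-90786047, plus strand: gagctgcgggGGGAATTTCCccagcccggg
Cxcl2, chr5:90903792-90903821, plus strand: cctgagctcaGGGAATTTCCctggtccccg
Cxcl1, chr5:90891164-90891193, plus strand: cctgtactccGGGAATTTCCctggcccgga
Ccl9, chr11:83578652-83578681, minus strand: tttgaactttGGAAAGCCCCaagtcacctt
Cxcl1 holds the same central 10 letters as Cxcl2 and Cxcl3, while its level was 9.73 and 12.1 (ratio 1.24, 0.817 to 1.86) against ratios of 89.996 and 429.7. The core letters of the low-oxygen response element, ACGTG or GCGTG on either strand, were found in 20 of 20 genes of the glycolysis and low-oxygen list with a listed promoter, against 46.7% of all genes and 67.7% of genes compared here. ACGTG alone was found in 15 of 20 (75.0%), against 21.8% and 29.9%. Such short letters recur by base composition, and genes with several starts have more room for a match. The windows below are shown for 5 genes with large ratios and for Adm, the member that was not higher at 7 days, which holds GCGTG on the opposite strand and no ACGTG.
Egln3, chr12:54204086-54204115, minus strand: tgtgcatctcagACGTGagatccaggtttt
Hilpda, chr6:29272571-29272600, plus strand: gatggccagcggACGTGccccagggcgagc
Bnip3, chr7:138909596-138909625, minus strand: cgcacgcgccgcACGTGccacacgctcccc
Slc2a1, chr4:119108697-119108726, plus strand: gtcccgccccggACGTGctccccaggcccc
Pgk1, chrX:106186938-106186967, plus strand: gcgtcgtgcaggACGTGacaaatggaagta
Adm, chr7:110627591-110627620, plus strand: ggcaaatctgacCACGCccaccgtccgccc

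The chemokines that draw neutrophils and monocytes were higher at 7 days with single exceptions in each list. Of 5 neutrophil chemokines, 4 were at least 2-fold higher, and the list's median log2 ratio was 4.72 against -0.21 over all genes. Cxcl5 was at 2.62 and 24.2 CPM (ratio 9.23, 5.62 to 15.8) and Ppbp, released by platelets and megakaryocytes, at 2.99 and 78.8 (ratio 26.3, 17.3 to 41.9), with Cxcl1 the exception. Of 4 ligands of Ccr2 and related receptors, Ccl2, Ccl7 at 27.8 and 641 (ratio 23.04, 20.05 to 26.6) and Ccl12 at 18.1 and 163 (ratio 8.998, 7.46 to 10.9) were higher, whereas Ccl8, a macrophage chemokine, was at 92.0 and 10.1 (ratio 0.110, 0.0743 to 0.158). Of 5 further CC chemokines, 4 were at least 2-fold higher, and Ccl3 was at 53.4 and 582 (ratio 10.9, 9.79 to 12.1), Ccl4 at 55.8 and 943 (ratio 16.9, 15.3 to 18.7) and Ccl9 at 145 and 1587 (ratio 10.9, 10.2 to 11.6), while Ccl5, made mostly by T and NK cells, was at 471 and 455 (ratio 0.966, 0.908 to 1.03). Of 7 tested lymphocyte chemokines 5 lay within 2-fold, and the other two were the interferon-inducible Cxcl9 at 272 and 24.5 (ratio 0.0901, 0.0706 to 0.113) and Cxcl10 at 76.6 and 318 (ratio 4.16, 3.75 to 4.605).

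Over the whole library, calprotectin and several granule genes of neutrophils were higher at 7 days, and the granule genes Camp and Ltf were lower. All 6 tested members of the calprotectin and stefin A list were at least 2-fold higher, with a median log2 ratio of 3.39. Stfa2l1, an inhibitor of cysteine proteases, was at 15.3 and 273 CPM (ratio 17.8, 14.7 to 21.7). Of 9 tested granule genes, 5 were higher and 2 lower. Gelatinase (Mmp9), a late granule protease, was at 25.6 and 348 (ratio 13.6, 11.7 to 15.9), neutrophil collagenase (Mmp8) at 61.3 and 374 (ratio 6.10, 5.49 to 6.80), lipocalin 2 (Lcn2), which binds bacterial siderophores, at 87.6 and 930.4 (ratio 10.6, 9.78 to 11.6), and the chitinase-like Chi3l3, shared with macrophages, at 78.2 and 1145 (ratio 14.6, 13.4 to 15.96). Lactoferrin (Ltf) and cathelicidin (Camp), made in bone marrow precursors, were at 22.7 and 8.50 (ratio 0.374, 0.238 to 0.566) and 91.1 and 12.7 (ratio 0.140, 0.0987 to 0.193), although neutrophils took the larger share of barcodes at 7 days. The earliest granule genes, Mpo, Elane and Ctsg, had 38, 14 and 25 UMIs in control and 0, 2 and 2 at 7 days, fewer than the 50 needed for a comparison.

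Immediate early genes and pattern receptors were mostly higher at 7 days, as were 5 of 10 genes of the interleukin 1 system, of which 2 were lower. Il1b was at 125 and 1687 CPM (ratio 13.5, 12.6 to 14.4), its natural antagonist Il1rn at 58.3 and 672 (ratio 11.5, 10.4 to 12.8), the decoy receptor Il1r2, a neutrophil marker, at 19.3 and 521 (ratio 26.9, 22.8 to 32.0), and the inflammasome sensor Nlrp3 at 15.2 and 125 (ratio 8.18, 6.66 to 10.1). The signalling receptor Il1r1, at 13.5 and 2.29 (ratio 0.170, 0.0667 to 0.362), and the alarmin Il33, at 13.4 and 0.981 (ratio 0.0735, 0.0149 to 0.221), both carried by endothelial and mesenchymal cells, were lower. Of 12 genes of Tnf and NF-kB feedback, 7 were at least 2-fold higher and 0 lower, with prostaglandin synthase 2 (Ptgs2) at 4.49 and 90.9 (ratio 20.2, 14.3 to 29.5), Nfkbiz at 49.9 and 207 (ratio 4.15, 3.65 to 4.71) and Tnf itself at 25.3 and 70.6 (ratio 2.79, 2.29 to 3.39). Of 19 immediate early genes, 14 were higher and 0 lower. Fosl1 was at 0.749 and 28.1 (ratio 37.6, 16.6 to 105), Ier3 at 85.6 and 1136 (ratio 13.3, 12.2 to 14.4), Egr1 at 65.5 and 279 (ratio 4.26, 3.81 to 4.75) and Fos at 253 and 630.0 (ratio 2.49, 2.34 to 2.65). Such genes also respond to tissue digestion, and the part of digestion was not tested. Among 19 Toll-like and Fc receptor genes, 14 were higher, with the C-type lectins Clec4d at 71.3 and 919 (ratio 12.9, 11.8 to 14.1) and Clec4e at 42.3 and 335 (ratio 7.93, 7.01 to 8.99), and Tlr2 at 28.0 and 107 (ratio 3.82, 3.22 to 4.55), while Tlr3 was at 15.3 and 4.25 (ratio 0.277, 0.143 to 0.491).

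Genes of glycolysis and of the response to low oxygen were higher nearly without exception. Of 22 genes, 21 were at least 2-fold higher (median log2 ratio 2.5), and only Adm, a vasodilator peptide, was not, at 9.11 and 6.54 CPM (ratio 0.718, 0.414 to 1.19). The glucose importer Slc2a1 was at 14.6 and 176 (ratio 12.05, 9.85 to 14.8), phosphoglycerate kinase (Pgk1) at 92.5 and 705 (ratio 7.63, 7.01 to 8.30), Gapdh at 339 and 2077 (ratio 6.13, 5.86 to 6.42), enolase (Eno1) at 176 and 1212 (ratio 6.87, 6.46 to 7.31) and lactate dehydrogenase (Ldha) at 340.3 and 1221 (ratio 3.59, 3.41 to 3.77). Bnip3, which marks mitochondria for removal, was at 14.97 and 283 (ratio 18.9, 15.6 to 23.1), and the angiogenic factor Vegfa at 6.36 and 111 (ratio 17.5, 12.98 to 23.9). Hif1a, the transcription factor of this response, is controlled mainly at the protein level, and its RNA was at 67.1 and 252 (ratio 3.76, 3.36 to 4.20). The enzymes are used by every cell, so that the makeup of the libraries and the level within cells cannot be told apart from these sums. Within lineages, Gapdh had a ratio of 5.30 (4.14 to 6.90) in neutrophils, 5.33 (4.92 to 5.78) in monocytes and macrophages, 3.71 (3.03 to 4.53) in Kupffer cells, 6.79 (4.89 to 9.29) in endothelial cells and 3.33 (2.503 to 4.38) in T cells. Pgk1 was at 9.74 (5.54 to 18.9), 6.27 (5.39 to 7.31), 4.95 (3.39 to 7.11), 7.92 (4.65 to 13.01) and 2.42 (1.31 to 4.27) in the same order, and Eno1 at 6.16 (4.29 to 9.18), 6.09 (5.47 to 6.80), 3.23 (2.27 to 4.51), 4.96 (2.86 to 8.20) and 2.57 (1.74 to 3.74). By these ratios the 3 enzymes were at least 2-fold higher within each of the 5 lineages compared, but the T cell intervals of Pgk1 and Eno1 reached below 2. Ldha in T cells was at 1.45 (0.983 to 2.08). The part of RNA from other cells in ratios within a lineage was not tested. S100a8, which T cells are not known to make, had a ratio of 12.6 (10.6 to 14.9) in T cell barcodes.

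Arginine and macrophage activation genes did not follow a single programme. Arg2 was at 5.49 and 109 CPM (ratio 19.8, 14.4 to 27.8), Socs3 at 28.0 and 113 (ratio 4.03, 3.40 to 4.796) and Il4ra at 57.8 and 157 (ratio 2.72, 2.39 to 3.10), beside Arg1, Nos2 and Chi3l3 above. The mannose receptor Mrc1, present on Kupffer and sinusoidal endothelial cells, was at 482 and 129 (ratio 0.267, 0.240 to 0.296), and Retnla, induced by interleukin 4, at 11.2 and 2.94 (ratio 0.262, 0.116 to 0.520). Genes of lipid-associated macrophages were divided, with 5 of 14 higher and 5 lower, where 8.79% of all genes compared were higher and 21.8% lower. Osteopontin (Spp1) was at 603 and 4314 (ratio 7.16, 6.92 to 7.40), the tetraspanin Cd9 at 111 and 762 (ratio 6.85, 6.33 to 7.40), galectin 3 (Lgals3) at 1079 and 3622 (ratio 3.36, 3.26 to 3.45) and the lipid droplet coat Plin2 at 312 and 1357 (ratio 4.35, 4.14 to 4.58). Gpnmb was at 439 and 125 (ratio 0.285, 0.256 to 0.317), macrophage elastase (Mmp12) at 296 and 99.1 (ratio 0.335, 0.296 to 0.377), lipoprotein lipase (Lpl) at 719.8 and 205 (ratio 0.284, 0.261 to 0.309) and Fabp4 at 269.7 and 92.5 (ratio 0.343, 0.302 to 0.389). In the 1-day library Gpnmb, Mmp12 and Spp1 were at 3.11, 5.08 and 711.

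Of 15 Kupffer cell genes, 13 were at least 2-fold lower, and none higher. The lectin Clec4f, which marks Kupffer cells, was at 946 and 171 CPM (ratio 0.180, 0.165 to 0.197), the phosphatidylserine receptor Timd4 at 75.9 and 16.02 (ratio 0.211, 0.154 to 0.283), and Cd5l, a secreted scavenger protein, at 843 and 204 (ratio 0.241, 0.222 to 0.262). Marco, a scavenger receptor, was at 546 and 263 (ratio 0.482, 0.447 to 0.520). Spic, the factor of haem-handling macrophages, was at 38.4 and 40.5 (ratio 1.05, 0.849 to 1.30). Of 13 receptors and bridges that clear dying cells, 7 were at least 2-fold lower and 2 higher, among them the kinase Mertk at 167 and 79.1 (ratio 0.473, 0.411 to 0.543), its ligand Gas6 at 77.6 and 7.85 (ratio 0.101, 0.0643 to 0.152) and the bridge Mfge8 at 107 and 9.48 (ratio 0.0889, 0.0591 to 0.129). Msr1, a scavenger receptor of macrophages, was at 243 and 500.2 (ratio 2.06, 1.92 to 2.20) and transglutaminase 2 (Tgm2) at 148 and 589 (ratio 3.98, 3.69 to 4.28). Cathepsin and lysosome genes stood near unity, with 15 of 18 within 2-fold, including Ctsb at 2682 and 3439 (ratio 1.28, 1.25 to 1.31) and Ctss at 2401 and 2446 (ratio 1.02, 0.992 to 1.05), whereas the proton pump subunit Atp6v0d2 was at 80.0 and 9.48 (ratio 0.119, 0.0787 to 0.172).

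Interferon-stimulated genes and antigen presentation genes differed in direction. Of 16 interferon-stimulated genes, 13 were at least 2-fold higher and 0 lower, with a median log2 ratio of 1.98. Isg20 was at 24.7 and 250.4 CPM (ratio 10.1, 8.66 to 11.9), Rsad2 at 87.8 and 717 (ratio 8.16, 7.496 to 8.90), Ifit1 at 38.3 and 243 (ratio 6.34, 5.54 to 7.27) and Isg15 at 78.1 and 436 (ratio 5.58, 5.07 to 6.14). The others lay within 2-fold, and of these Irf1 at 165 and 112 (ratio 0.680, 0.602 to 0.767) and Gbp2 at 186 and 162 (ratio 0.872, 0.786 to 0.966) are known to answer interferon gamma as well. Class II genes were lower in 3 of 7 cases by 2-fold and within 2-fold in the other 4, where 21.8% of all genes compared were lower. H2-Eb1 was at 1651 and 604 (ratio 0.366, 0.348 to 0.384), Cd74 at 1561 and 851 (ratio 0.545, 0.523 to 0.569) and their transactivator Ciita at 33.9 and 9.15 (ratio 0.270, 0.176 to 0.399). All 11 class I genes lay within 2-fold, B2m at 3659 and 5105 (ratio 1.40, 1.37 to 1.42) among them, and the sign of this list's median log2 ratio of -0.18 turned to 0.01 with TMM.

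Plasma proteins made by hepatocytes were lower in the 7-day library. All 9 tested apolipoproteins were at least 2-fold lower, with Apoa1 at 146 and 20.6 CPM (ratio 0.141, 0.108 to 0.182), Apoa2 at 184 and 23.2 (ratio 0.126, 0.0981 to 0.160) and Apoe, which macrophages also make, as given above. Of 13 acute phase genes 10 were lower, with fibrinogen beta (Fgb) at 163 and 25.8 (ratio 0.159, 0.125 to 0.199), haemopexin (Hpx) at 114 and 12.1 (ratio 0.106, 0.0739 to 0.147), Saa1 at 48.7 and 10.1 (ratio 0.208, 0.140 to 0.300) and Saa2 at 36.7 and 4.90 (ratio 0.134, 0.0739 to 0.224). The 3 that were higher, Saa3 at 243 and 964 (ratio 3.96, 3.74 to 4.20), haptoglobin (Hp) at 298 and 626 (ratio 2.10, 1.97 to 2.23) and Lcn2, are also made by myeloid cells. Without the 1% of barcodes with the most UMIs the median log2 ratio of the apolipoproteins moved from -2.45 to -1.67 and that of the acute phase list from -2.68 to -1.60. In the list of hepatocyte metabolism, 6 of 9 tested genes were lower, among them Pck1, the first enzyme of gluconeogenesis, at 30.3 and 1.96 (ratio 0.0647, 0.0235 to 0.143), and Cps1, the entry enzyme of the urea cycle, at 12.9 and 0.654 (ratio 0.0509, 0.00608 to 0.188). Arg1 is a urea cycle gene of this list too, and it was in the opposite direction from Cps1. Of 16 complement genes, 11 were lower and 2 higher. C3 was at 311 and 96.1 (ratio 0.309, 0.273 to 0.349), C4b at 139.8 and 15.7 (ratio 0.112, 0.0823 to 0.150) and C1qb, a macrophage product, at 1525 and 623 (ratio 0.409, 0.389 to 0.429), while the anaphylatoxin receptor C5ar1, found on neutrophils and monocytes, was at 40.2 and 362 (ratio 8.998, 7.94 to 10.2).

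Genes of the sinusoidal endothelium were lower in 13 of 16 cases. The hyaluronan scavenger Stab2 was at 143 and 17.7 CPM (ratio 0.123, 0.0919 to 0.162), the lectin Clec4g at 306 and 41.8 (ratio 0.137, 0.114 to 0.164), the VEGF receptor Kdr at 209.6 and 39.2 (ratio 0.187, 0.154 to 0.225) and the junction protein Cdh5 at 73.7 and 19.0 (ratio 0.257, 0.193 to 0.337). The exception upward was Fcgr2b at 207 and 527 (ratio 2.54, 2.37 to 2.73), an Fc receptor that sinusoidal endothelium shares with macrophages.

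Matrix genes of fibroblasts were lower at 7 days, and several matrix genes that leukocytes also make were higher. All 14 collagens were at least 2-fold lower, with a median log2 ratio of -5.89, and the 3 smallest differences among them were in the basement membrane collagens Col18a1, Col4a2 and Col4a1, with Col4a1 at 136 and 28.4 CPM (ratio 0.209, 0.166 to 0.261) and Col18a1 at 18.2 and 7.52 (ratio 0.413, 0.254 to 0.643). Of 17 matrix glycoproteins 12 were lower and 4 higher. Sparc, which binds collagen, was at 1022 and 81.1 (ratio 0.0793, 0.0696 to 0.0900), fibrillin 1 (Fbn1) at 42.6 and 1.31 (ratio 0.0307, 0.00833 to 0.0794) and tenascin C (Tnc), a protein of healing tissue, at 18.2 and 2.29 (ratio 0.126, 0.0496 to 0.265). Thbs1 and Spp1, given above, were higher, as were Ecm1 at 61.3 and 384 (ratio 6.27, 5.64 to 6.99) and Tgfbi at 147 and 917 (ratio 6.25, 5.83 to 6.69). Fibronectin (Fn1), which monocytes also make, was at 231 and 403 (ratio 1.74, 1.62 to 1.88). Of 9 proteoglycans 7 were lower, including biglycan (Bgn) at 119 and 4.58 (ratio 0.0385, 0.0210 to 0.0649), whereas Srgn and versican (Vcan), a monocyte product at 45.8 and 257 (ratio 5.60, 4.94 to 6.36), were higher. For these lists the defining markers of mesenchymal cells were themselves near 0 at 7 days (17.3 CPM in sum), and Col1a1, Col1a2, Col3a1, Dcn, Lum, Dpt and Postn are themselves on that list of markers.

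Several proteases, inhibitors and clotting genes known from leukocytes were higher at 7 days, and several known from hepatocytes or mesenchymal cells were lower. Of 17 matrix protease, inhibitor and crosslinking genes, 9 were higher and 6 lower. The urokinase receptor Plaur was at 15.3 and 310.2 CPM (ratio 20.2, 16.7 to 24.6), the sheddase Adam8 at 48.5 and 386 (ratio 7.96, 7.09 to 8.95) and Timp1 at 35.3 and 93.5 (ratio 2.65, 2.24 to 3.13), while Timp3 was at 180.1 and 25.2 (ratio 0.140, 0.110 to 0.176) and the crosslinking enzymes Lox and Loxl2 at 17.5 and 0.327 (ratio 0.0187, 0.000470 to 0.106) and 38.3 and 1.63 (ratio 0.0427, 0.0138 to 0.101). Among clotting genes, factor X (F10) was at 74.9 and 516 (ratio 6.89, 6.27 to 7.58) and factor XIII A (F13a1) at 103 and 476 (ratio 4.62, 4.24 to 5.04), both also monocyte markers here, while prothrombin (F2) and plasminogen (Plg), secreted by hepatocytes, were at 21.96 and 2.94 (ratio 0.134, 0.0603 to 0.260) and 13.7 and 0.981 (ratio 0.0714, 0.0145 to 0.214). Repair cytokines with a higher level were oncostatin M (Osm) at 13.1 and 319.7 (ratio 24.4, 19.9 to 30.1), activin A (Inhba) at 5.99 and 101 (ratio 16.9, 12.4 to 23.4) and Mif at 223 and 991 (ratio 4.44, 4.18 to 4.71). Igf1, made by Kupffer cells and hepatocytes, was at 282 and 36.9 (ratio 0.131, 0.108 to 0.158), and Hgf, which stellate cells make for hepatocytes, at 10.2 and 2.94 (ratio 0.288, 0.127 to 0.573). Eicosanoid genes split, with 5 of 10 higher and 4 lower: Alox5ap, needed for leukotriene synthesis, was at 262 and 1325 (ratio 5.06, 4.799 to 5.34) and the leukotriene B4 receptor Ltb4r1 at 8.73 and 132 (ratio 15.1, 11.7 to 19.8), while Ptgs1 was at 161 and 33.7 (ratio 0.209, 0.169 to 0.255).

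**Figure D4:**
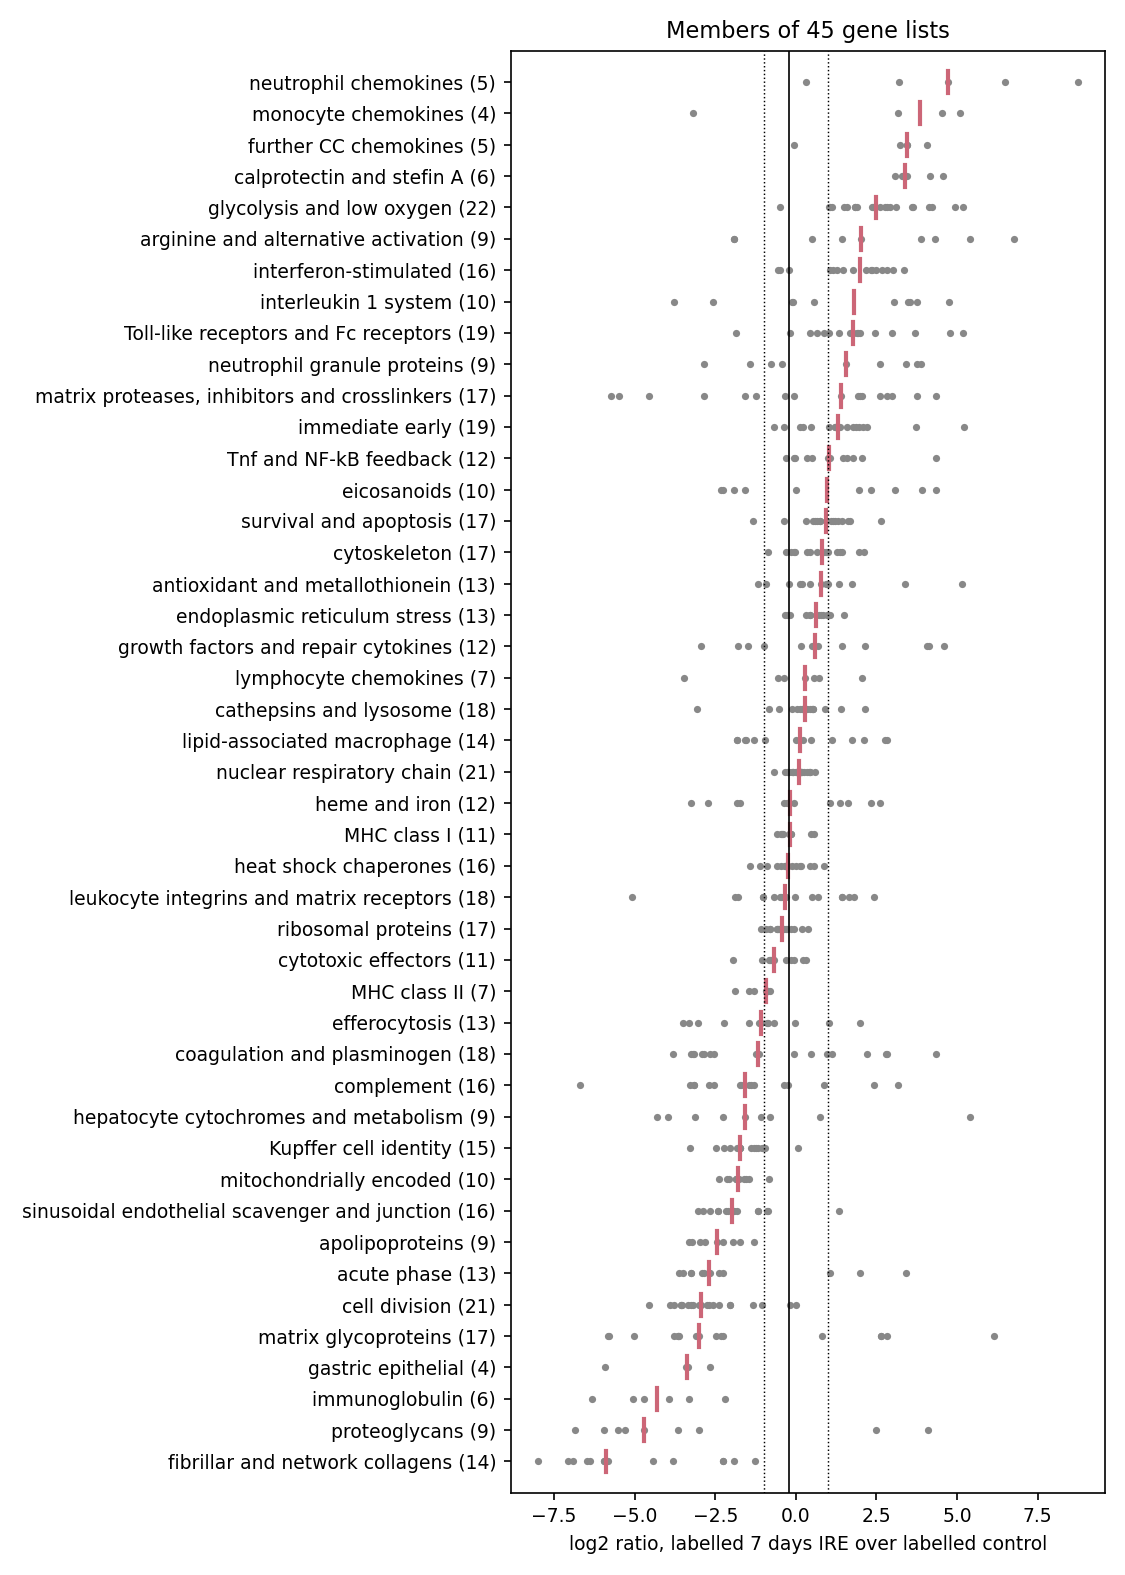
Log2 ratio of CPM, 7-day over control library, for every compared member (grey points) of each of 45 gene lists, with the list's median in red and the number of members in brackets. The solid line marks the median over all genes compared (-0.21) and the dotted lines a 2-fold difference, and lists run from the neutrophil chemokines (4.72) to the collagens (-5.89).

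Mitochondrially encoded genes were lower at 7 days, while respiratory chain genes encoded in the nucleus were not 2-fold different. Of 10 tested mitochondrially encoded genes, which include the ribosomal RNAs mt-Rnr1 and mt-Rnr2, 9 were at least 2-fold lower. The respiratory chain gene mt-Nd1 was at 1780.0 and 529.9 CPM (ratio 0.298, 0.283 to 0.313) and mt-Co1, the exception, at 1757 and 977 (ratio 0.556, 0.534 to 0.579). All 21 nuclear genes of the respiratory chain lay within 2-fold, with a median log2 ratio of 0.10 that was -0.17 with mitochondrially encoded genes left out of the total. Cox4i1 was at 825 and 783 (ratio 0.949, 0.905 to 0.995) and Atp5b at 288 and 344 (ratio 1.19, 1.11 to 1.28). In barcodes under 200 genes mitochondrially encoded genes took 52.7% and 8.41% of UMIs.

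Iron and redox genes were higher in part. Haem oxygenase 1 (Hmox1) was at 79.1 and 481 CPM (ratio 6.07, 5.53 to 6.68) and the phagosomal iron carrier Slc11a1 at 145 and 450.2 (ratio 3.10, 2.86 to 3.35), while the iron exporter Slc40a1, a Kupffer cell gene, was at 360.4 and 101 (ratio 0.279, 0.248 to 0.314) and hepcidin (Hamp), secreted by hepatocytes, at 19.5 and 2.94 (ratio 0.151, 0.0678 to 0.294). Peroxiredoxin 6 (Prdx6) was at 67.8 and 703 (ratio 10.4, 9.44 to 11.4) and Gclm, of glutathione synthesis, at 54.3 and 180.1 (ratio 3.32, 2.92 to 3.77), whereas superoxide dismutase 1 (Sod1) was at 392 and 175 (ratio 0.446, 0.406 to 0.489). Chaperones of the heat shock response were within 2-fold in 14 of 16 cases, with Hspa8 at 1147 and 1266 (ratio 1.10, 1.06 to 1.15) and Hsp90aa1 at 648 and 602 (ratio 0.930, 0.882 to 0.981), and the exceptions, Hspa1b and Cryab, were lower. Endoplasmic reticulum stress genes were within 2-fold in 11 of 13 cases, Xbp1 at 84.0 and 236 (ratio 2.81, 2.53 to 3.13) and Ddit3 at 55.0 and 115 (ratio 2.09, 1.81 to 2.40) being the 2 above it.

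Cell division genes were lower at 7 days, in 19 of 21 cases, with a median log2 ratio of -2.94. Mki67 was at 265 and 17.7 CPM (ratio 0.0667, 0.0499 to 0.0873), topoisomerase Top2a at 264 and 22.6 (ratio 0.0853, 0.0662 to 0.108) and the survivin gene Birc5 at 63.0 and 4.58 (ratio 0.0726, 0.0394 to 0.123). Pcna, of DNA replication and repair, was at 124 and 109 (ratio 0.879, 0.775 to 0.996) and the histone H2afz at 275 and 276 (ratio 1.00, 0.926 to 1.09). The cell cycle inhibitor Cdkn1a was at 180.4 and 1117 (ratio 6.19, 5.82 to 6.59), and 8 of 17 survival and apoptosis genes were at least 2-fold higher, among them Bcl2l1 at 28.3 and 90.6 (ratio 3.20, 2.67 to 3.83), with Bcl2 the single lower one at 35.8 and 14.4 (ratio 0.402, 0.286 to 0.553).

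Antibody genes were lower in 6 of 6 tested cases. Ighm was at 381 and 38.2 CPM (ratio 0.1003, 0.0826 to 0.121) and Igkc at 341 and 22.2 (ratio 0.0651, 0.0504 to 0.0828). Of 11 cytotoxic genes 9 were within 2-fold and 2 lower, where 21.8% of all genes compared were lower. Granzyme A (Gzma), an NK cell product, was at 291 and 74.9 (ratio 0.258, 0.224 to 0.295) and granzyme B (Gzmb) at 56.3 and 70.6 (ratio 1.25, 1.06 to 1.48).

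Itgam and Itgb2, the chains of the integrin Mac-1, were blocked with antibodies in the study, and Cd24a and Cxcr4 were followed there in neutrophils. Itgam, the alpha M chain, was at 174 and 942 CPM (ratio 5.42, 5.09 to 5.79), and was found in 10.4% and 35.8% of barcodes. Itgb2, its partner chain, was at 139 and 371 (ratio 2.68, 2.46 to 2.91). Cd24a, a surface glycoprotein of neutrophils and other cells, was at 58.0 and 295 (ratio 5.09, 4.54 to 5.70), and Cxcr4, the receptor that retains neutrophils in bone marrow, at 23.3 and 37.3 (ratio 1.60, 1.25 to 2.03). Within neutrophils alone Itgam was at 375 and 1209 (ratio 3.23, 2.5002 to 4.24), Itgb2 at 169 and 366 (ratio 2.16, 1.47 to 3.30) and Cd24a at 218 and 493 (ratio 2.27, 1.62 to 3.27). Cxcr4 within neutrophils rested on 3 and 50 UMIs. In T cell barcodes, Itgam had a ratio of 7.13 (3.15 to 16.1) on 14 and 14 UMIs, and was found in 2.70% and 11.2% of them. The part of RNA from other cells in these ratios within a lineage was not tested. Of 18 leukocyte integrins and matrix receptors, 5 were at least 2-fold higher and 5 lower, where 8.79% of all genes compared were higher and 21.8% lower. The hyaluronan receptor Cd44 was at 224 and 701 (ratio 3.12, 2.93 to 3.33), syndecan 4 (Sdc4) at 104 and 364 (ratio 3.48, 3.18 to 3.81), Itgal, the alpha chain of LFA-1, at 118 and 58.5 (ratio 0.496, 0.421 to 0.583), and the fibroblast collagen receptor Ddr2 at 11.0 and 0.327 (ratio 0.0298, 0.000745 to 0.170). Itgb1, expressed by nearly all cells, was at 457 and 371 (ratio 0.813, 0.760 to 0.870).

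Cytoskeletal genes were higher in 5 of 17 cases and lower in 0, including Actg1 at 200.3 and 871 CPM (ratio 4.35, 4.09 to 4.63) and cofilin (Cfl1) at 248 and 635 (ratio 2.56, 2.41 to 2.73), and 16 of 17 ribosomal protein genes were within 2-fold. Genes of gastric epithelium, which liver does not express, were lower in all 4 cases tested, on few UMIs. Tff1, a mucosal trefoil peptide, had 159 UMIs in control, 0 at 1 day and 1 at 7 days, and Gkn1 had 83, 0 and 0. Among barcodes with at least 500 genes the log2 ratio of Tff1 was -1.0 in place of -5.92 and that of Gkn1 -0.39 in place of -3.40. Both Gkn1 values are bounds, with 0 UMIs at 7 days set to 3, and those of Tff1 rest on at most 1 UMI there. Such bounds near 0 as control UMIs become fewer, so these values do not show a smaller difference in gene-rich barcodes.

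Within lineages, Cxcl2, Arg1, Thbs1 and Fth1 were at least 2-fold higher at 7 days in each of the 5 lineages compared. In T cells Arg1 rested on only 13 and 22 UMIs and Thbs1 on 1 and 26, fewer than the 50 used for a comparison. Levels in barcodes under 200 genes are given beside them. The 5 lineages had at least 50 barcodes in each library, and in them the median log2 ratio lay between 0.05 and 0.38. These medians, and the counts of genes higher and lower within a lineage, depend on depth. Genes passed on the UMIs of both libraries together, and a count of 0 was set to 3 UMIs. Cxcl2 was at 399 and 9576 CPM in neutrophils with a ratio of 24.0 (18.9 to 31.1), 63.8 and 2719 in monocytes and macrophages, 34.9 and 2989 in endothelial cells, 37.5 and 1219.7 in Kupffer cells and 39.8 and 1438 in T cells. S100a8, which T cells are not known to make, was found in 26.7% of control and 80.6% of 7-day T cell barcodes, at 628 and 7898 CPM. After thinning to 300 UMIs these shares were 13.5% and 77.8%. In barcodes under 200 genes, S100a8 was at 4456 and 44662 and Cxcl2 at 93.1 and 11981 CPM, so both were abundant also in barcodes with too few genes to be counted as members. Alb, a product of hepatocytes, was found in 7.42 to 10.2% of control and 2.04 to 5.24% of 7-day barcodes of these 5 lineages. Whether RNA in barcodes under 200 genes was free or came from small cells, and its part in each difference within a lineage, was not tested. Values in T cells give the background for genes T cells do not make: Arg1 was found in 1.57% and 15.3% of T cell barcodes, against 6.72% and 54.7% of monocytes and macrophages and 2.61% and 37.0% of neutrophils.

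**Figure D5:**
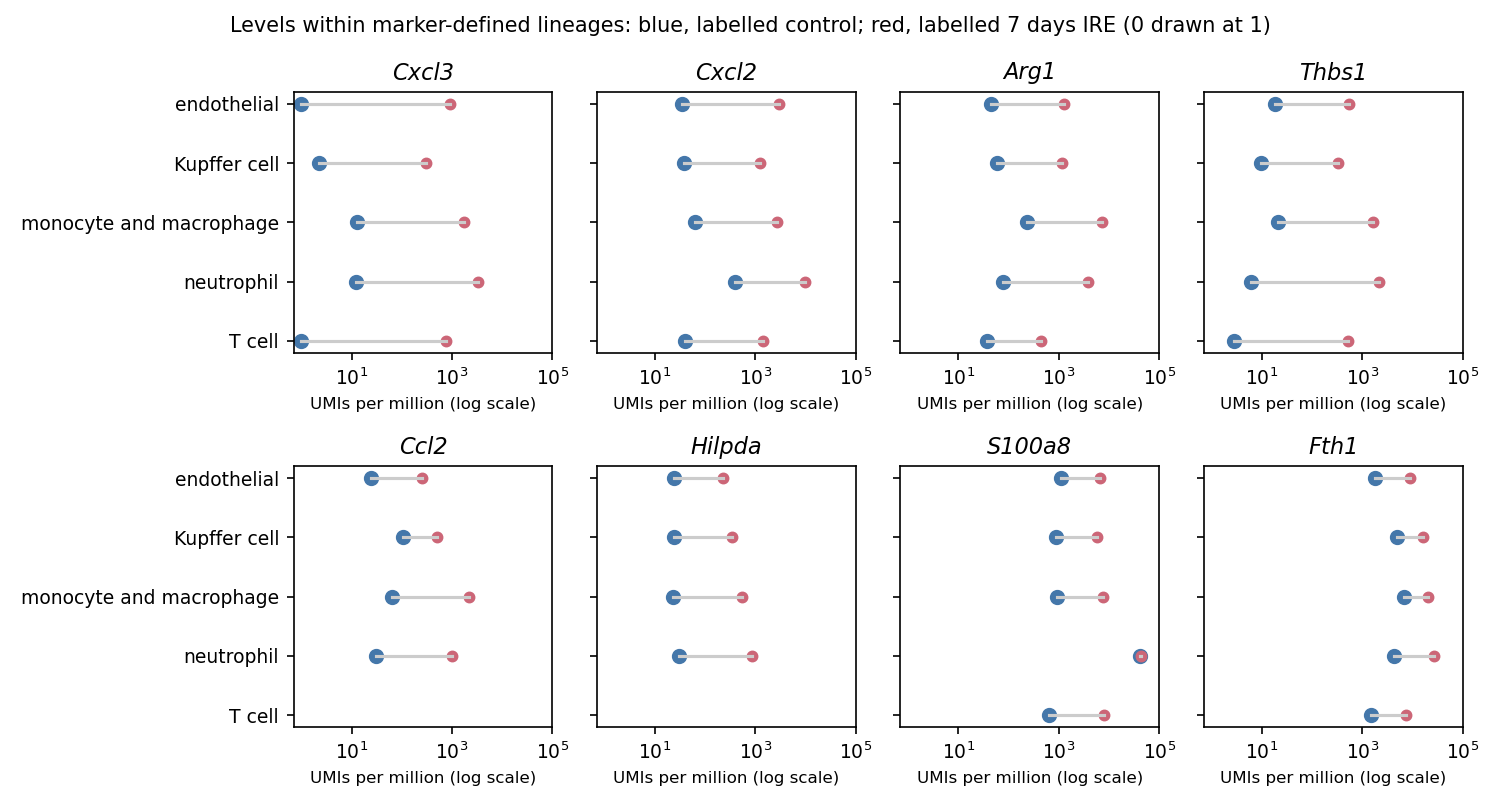
CPM (log axes) of 8 genes within each of the 5 lineages compared, with the control library in blue and the 7-day library in red, each point being the sum over all barcodes of that lineage in 1 library. All 8 genes were higher at 7 days in each lineage drawn, except S100a8 in neutrophils, whose 2 points coincide, and Ccl2 and Hilpda are not drawn for T cells.

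Neutrophils were compared over 3048 genes, of which 784 (25.7%) were at least 2-fold higher and 123 (4.04%) at least 2-fold lower at 7 days, against 165468 UMIs in the 230 control barcodes and 1023665 in the 1986 at 7 days. Cxcl3 was at 12.1 and 3361 CPM from 2 and 3441 UMIs, so its ratio of 278 (76.9 to 2297) is poorly bounded. Thbs1 rested on 1 control UMI and 2162 at 7 days. Arg1 was at 78.6 and 3733 (ratio 47.5, 27.7 to 89.3) and Cd14 at 103 and 2815 (ratio 27.4, 17.1 to 47.1). S100a8 itself was at 41621 and 42779 (ratio 1.03, 1.00 to 1.05), so that its difference over the tissue was not seen within neutrophils. Camp, a gene of immature neutrophils, was at 1523 and 35.2 (ratio 0.0231, 0.0158 to 0.0328), Ltf at 532 and 24.4 (ratio 0.0459, 0.0282 to 0.0723) and the division gene Top2a at 193 and 19.5 (ratio 0.101, 0.0548 to 0.182). Gzma, which neutrophils are not known to make, was at 357 and 43.0 (ratio 0.121, 0.0797 to 0.181).

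Monocytes and macrophages were compared over 5807 genes, with 622 (10.7%) higher and 457 (7.87%) lower. Arg1 was at 233 and 7280.1 CPM (ratio 31.2, 28.3 to 34.5), Cxcl3 at 13.1 and 1717 (ratio 131, 88.0 to 205), Thbs1 at 21.3 and 1654 (ratio 77.8, 56.7 to 109.8) and Ccl2 at 65.4 and 2164 (ratio 33.1, 27.5 to 40.1). With markers of any lineage left out, the 5 largest differences downward were in genes of different kinds. Mfge8, the bridge to dying cells, was at 165 and 2.70 (ratio 0.0164, 0.00336 to 0.0484), Mki67 at 167 and 4.50 (ratio 0.0269, 0.00867 to 0.0634) and Atp6v0d2, of mature macrophages, at 153 and 7.20 (ratio 0.0472, 0.0202 to 0.0942). Camp and Igkc, at 68.1 and 0.900 (ratio 0.0132, 0.000332 to 0.0749) and 149 and 6.30 (ratio 0.0422, 0.0168 to 0.0881), belong to other cell types. Mitochondrially encoded genes took 19.7% and 3.27% of the UMIs of this lineage.

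Kupffer cells were compared over 3916 genes, with 273 (6.97%) higher and 385 (9.83%) lower. Arg1 was at 59.6 and 1157 CPM (ratio 19.4, 14.6 to 26.0), Slfn4, an interferon-stimulated gene, at 21.3 and 377 (ratio 17.7, 10.7 to 29.4), Ccl9 at 62.5 and 888 (ratio 14.2, 10.52 to 19.2) and Hilpda at 23.5 and 349.8 (ratio 14.9, 9.07 to 24.5). Gbp2b, an interferon gamma-induced GTPase, was at 482 and 80.7 (ratio 0.168, 0.0763 to 0.320) and H2-Ab1 at 3847 and 1094 (ratio 0.284, 0.236 to 0.340). Endothelial cells were compared over 3574 genes, with 570 (15.9%) higher and 405 (11.3%) lower, on only 48176 UMIs in the 80 barcodes at 7 days. With a count of 0 set to 3 UMIs, genes absent at 7 days could be missed among those lower. In endothelial cells Col1a2, at 118 and 0 UMIs, had a bound of 0.604, and Camp, at 60 and 0, one of 1.19. In Kupffer cells Igkc, at 56 and 0, had one of 0.653. Whether more genes were higher than lower in endothelial cells is therefore not shown by these counts. Timp1, an inhibitor of matrix proteases, was at 13.97 and 747 (ratio 53.5, 28.9 to 103) and matrix Gla protein (Mgp), which inhibits calcification, at 67.3 and 913 (ratio 13.6, 9.16 to 19.9), whereas over the whole tissue the 7-day levels were 93.5 and 27.8. Cxcl9 was at 1018 and 145 (ratio 0.143, 0.0572 to 0.295) and H2-Eb1 at 621 and 104 (ratio 0.167, 0.0541 to 0.392), the same direction as over the whole tissue. T cells were compared over 1124 genes, with 132 (11.7%) higher and 115 (10.2%) lower. Ier3 was at 42.6 and 749 (ratio 17.6, 9.42 to 34.5) and Ccl6 at 139 and 1175 (ratio 8.43, 5.67 to 12.6). The neutrophil marker Retnlg, left out of the ranking as a marker, was at 79.6 and 1357 (ratio 17.1, 10.8 to 27.5) in T cell barcodes. Among genes that mark no lineage, 4 of the 5 largest differences downward were mitochondrially encoded. The fifth was Lpl, which codes for a lipase of macrophages and fat cells and had 85 UMIs in control T cell barcodes and 0 at 7 days, which made it at least 3.98-fold lower.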

How the data were processed

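Single-cell RNA-seq of mouse liver punches was measured by Drop-seq in 1 library for each of control, 1 day and 7 days. The deposited matrices hold UMI counts for each gene and barcode, not normalized, which the authors made with the Drop-seq tools. Per the file headers, UMIs were collapsed at an edit distance of 1, reads had a mapping quality of at least 10 and the gene strand was used. The submitters' processing notes name STAR 2.5.2a and the build hg19, a human build, although gene symbols and organism are mouse, and why was not given in the sources used here. Here coordinates are from RefSeq on GRCm38.p6 only.

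Barcodes with at least 200 genes were kept, and UMIs were summed for each gene and library. Genes with at least 50 UMIs in both libraries together were compared as CPM, counts per 1000000 UMIs of the library. Ratio intervals are exact conditional binomial 95% intervals, and a count of 0 was set to 3 UMIs for a bound. Depth was 8013800, 6107866 and 3058967 UMIs in kept barcodes of the control, 1-day and 7-day libraries. With 1 pooled library in each group, replicates could not be compared and no p-value was computed. Each barcode was given the lineage with the most distinct markers (at least 2). Members and lists (45 gene lists and 14 marker lists, 752 of 760 entries found) were chosen with earlier results of these data known. Named genes were, among genes with at least 50 UMIs, the 15 with the largest differences each way by the nearer interval limit. The 10 largest gains and losses in CPM were also named. Within each lineage the 5 largest each way were named, with the markers of any lineage left out. In each list the 4 with the most UMIs were named, plus members at least 4-fold different with at least 50 UMIs. To these were added 4 genes the study followed (Itgam, Itgb2, Cd24a and Cxcr4). Other list members and markers were named after their values were seen, as exceptions or as well-known members. Genes can belong to several lists. Some items are not reported here. Barcodes were thinned with a fixed seed. The ratio and its interval were tested on simulated counts. Alternatives were other barcode filters, lineage rules, totals and scalings, with edgeR 4.0.16 in R 4.3.3 for TMM factors only. The rest used Python 3.11.15, numpy 2.4.6, pandas 2.3.3 and scipy 1.17.1. Protein and hairpin sequences were not used here.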

Additional observations from a re-analysis of the deposited data

Results flagged for a closer look

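Among named genes that mark no lineage, 5 stood in opposite directions in different lineages, at least 2-fold each way and with intervals of counting error on either side of 1. They were picked by that rule, and the difference between lineages itself was not tested. Each value below is the ratio of CPM at 7 days to control within that lineage. Cxcl13, a B cell chemokine, was at 4.97 (4.10 to 6.00) in Kupffer cells and 0.107 (0.0338 to 0.261) in monocytes and macrophages, the latter on 77 and 5 UMIs. The macrophage elastase Mmp12 was at 3.08 (2.33 to 4.03) in Kupffer cells, 0.189 (0.153 to 0.232) in monocytes and macrophages, 0.245 (0.157 to 0.387) in neutrophils and 0.0938 (0.00234 to 0.538) in T cells, the last on 76 and 1 UMIs. Granzyme B (Gzmb) was at 4.56 (3.51 to 5.92) in T cells, which make it, and 0.354 (0.191 to 0.684) in neutrophils, which are not known to, on 16 and 35 UMIs. Nkg7, a granule protein of cytotoxic lymphocytes, was at 3.04 (2.39 to 3.84) in T cells, 0.394 (0.257 to 0.586) in monocytes and macrophages and 0.266 (0.167 to 0.430) in neutrophils, the last on 31 and 51 UMIs. In T cell barcodes Cd8a was at 3.27 (2.01 to 5.20) and Cd8b1 at 5.76 (4.27 to 7.75), and the part of T cell subsets in these values was not tested. The acute phase gene Saa3 was at 3.96 (2.02 to 7.17) in endothelial cells, 3.36 (3.08 to 3.66) in monocytes and macrophages and 5.72 (3.49 to 10.1) in neutrophils, but at 0.462 (0.197 to 0.928) in Kupffer cells, on 211 and 8 UMIs.

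Barcodes under 200 genes, which entered no comparison, also held marker transcripts above the control level. The summed ratio was 12.1 (11.6 to 12.5) for neutrophil markers, 1.94 (1.85 to 2.04) for monocyte and macrophage markers and 2.65 (1.70 to 4.23) for cholangiocyte markers, the last on 31 and 62 UMIs. Hepatocyte markers in the same barcodes were at 934 and 773 CPM, against 1611 and 372 in kept barcodes.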

How the results depend on the processing

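No paired analysis was possible because each group was 1 library, and for the same reason no library could be left out. Genes at least 2-fold lower at 7 days numbered 3823 with no filter on low counts, 1085 among the 1000 barcodes with the most UMIs in each library and 841 with at least 200 UMIs, against 2225. Genes at least 2-fold higher numbered between 630 and 1340 under the alternatives, against 899. The count of 2 lineages with a higher share was the same under each. Of 315 named genes under 10 alternatives, 1 of those at least 2-fold different turned direction. This was Tff2, which had a log2 ratio of 0.12 with at least 500 genes, against -2.68, on few UMIs, and the cause was not tested. Changes of sign in genes within 2-fold were not counted. Of 3145 recomputed values of named genes, 1258 moved beyond their interval. For 5 values no fold could be given because counts were at the floor. None of 45 list medians past 2-fold turned, although medians close to 0 took either sign with the scaling, which shifts every gene alike (class I, nuclear respiratory chain, haem and iron, lipid-associated macrophage), or with a filter on barcodes (cathepsins, lymphocyte chemokines). Of 252 lineage shares recomputed, 143 stayed within their interval and 109 moved beyond it. Low depth limits genes under 50 UMIs, which were not compared, and lineages under 50 barcodes at 7 days, within which no level was compared.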
